A study of Canis lupus familiaris with 10 samples.

Results

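The regions described here are the stretches of dog chromosome 13 in which a peak of accessible chromatin was called, outside the 4 Mb around MYC that lie between 24 and 28 Mb. Touching or overlapping peaks of all 10 libraries were merged, merged regions on chromosome 13 were kept, and those that overlapped 24 to 28 Mb were left out. This gave 1591 regions of 59420 in the whole genome and of 1738 on the chromosome, with 147 left out. Positions are those of the dog genome CanFam3.1, counted from 1.

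Open chromatin was mapped with ATAC-seq in 2 lines of canine B-cell lymphoma, 17-71 and CLBL-1. Each was grown without or with 100 nM PR220, a selective inhibitor of the arginine methyltransferase PRMT5. The study's text names the inhibitor C220 at the same dose and days, and both names are assumed here to mean 1 compound. For 17-71, collected on day 4, there were 3 control and 2 PR220 libraries, and for CLBL-1, collected on day 2, there were 2 control and 3 PR220 libraries. Each line is a single cell line from lymph node, so line, day of collection and animal cannot be told apart, and PR220 was compared with control only within a line. The labels name no culture for each library, and the study speaks of biological triplicates without saying which libraries they are, so p-values measure the spread between these libraries, which may be technical.

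ATAC-seq uses a transposase that cuts and tags DNA where nucleosomes and other proteins leave it free, so peaks mark promoters, enhancers and other open sites. PRMT5 adds symmetric dimethyl marks to arginines of histones and to proteins of the splicing machinery. The histone marks are known for gene silencing or, depending on the site, for an open state that favours expression. Accessible sites are unevenly spread along mammalian chromosomes, with dense peaks where genes are dense and few peaks in gene-poor stretches. The genes of dog chromosome 13 include KIT, which encodes a receptor tyrosine kinase of blood stem cells, mast cells and germ cells, with PDGFRA and KDR as its neighbours in the RefSeq gene order of the assembly UU_Cfam_GSD_1.0.

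The 17-71 libraries carried more peaks on chromosome 13 outside 24 to 28 Mb than the CLBL-1 libraries. There were 1158, 918 and 857 peaks in the 17-71 control libraries and 636 and 803 with PR220. There were 559 and 549 peaks in the CLBL-1 control libraries and 595, 630 and 524 with PR220. The lines did not overlap, although within 17-71 control library 1, with the most of these peaks, and PR220 library 1, with the fewest, stood far apart. Over the genome the same libraries had the most and the fewest peaks of all 10, 44378 and 22076, where the other 8 libraries had between 23082 and 33358 and the lines overlapped. The depth of sequencing is unknown from peak lists, so the absence of a peak does not show closed chromatin.

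Because the libraries differed in their total, the share of each library's peaks was compared. It was 2.61, 2.75 and 2.77% in the 17-71 control libraries, 2.88 and 2.90% in 17-71 with PR220, 2.35 and 2.35% in the CLBL-1 control libraries, and 2.20, 2.31 and 2.27% in CLBL-1 with PR220. Every 17-71 library was above every CLBL-1 library. The mean was 2.78% ± 0.118 (SD, n = 5) in 17-71 and 2.30% ± 0.0629 (SD, n = 5) in CLBL-1, a difference of 0.486 percentage points (exact permutation test over 252 splits, two-sided p = 0.00794, the smallest the design allows, adjusted p = 0.0122 over 40 chromosome units). In lists of 20000 peaks the difference was 0.431 percentage points (exact permutation, adjusted p = 0.0127). With only peaks of a −log10 p of at least 10 it was 0.354 (exact permutation, adjusted p = 0.0244), and the lines then overlapped, since 17-71 control library 1, with 2.47%, fell below CLBL-1 control library 1, with 2.52%. Such differences were common: 15 of the 40 units had a higher share in 17-71 and 17 a higher share in CLBL-1 past the threshold of 0.05. By the ratio of the lines' means, 1.21, chromosome 13 outside 24 to 28 Mb ranked 7 of 40. The bases covered by peaks gave a like difference, with 2.78% ± 0.154 (SD, n = 5) of all covered bases in 17-71 and 2.35% ± 0.102 (SD, n = 5) in CLBL-1 (exact permutation p = 0.00794, adjusted p = 0.0198 over 10 measures). With only peaks of a −log10 p of at least 10 the lines overlapped in this share too, and the difference was 0.333 percentage points (exact permutation p = 0.0317).

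**Figure D1:**
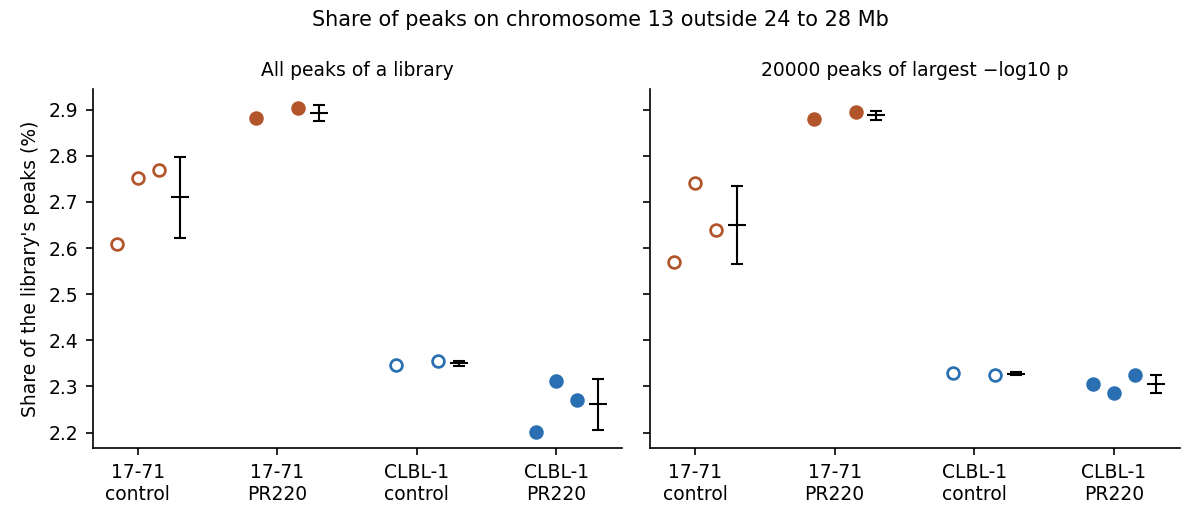
Share of each library's peaks that lie on chromosome 13 outside 24 to 28 Mb, in percent, by cell line and treatment, for all peaks at the left and for lists of 20000 peaks of largest −log10 p at the right. Open points are control and filled points PR220 libraries, and the bars give the mean and SD of each group; the vertical axis does not start at 0. Every 17-71 library is above every CLBL-1 library in both panels.

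Both sides of the stretch left out took part in the difference between the lines. Before 24 Mb, where 675 regions lie, the share of peaks was 1.18% ± 0.0623 (SD, n = 5) in 17-71 and 1.04% ± 0.0374 (SD, n = 5) in CLBL-1. After 28 Mb, with 916 regions, it was 1.60% ± 0.0930 (SD, n = 5) and 1.26% ± 0.0406 (SD, n = 5). On neither side did the libraries of the lines overlap.

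Peaks on the chromosome were about as wide as elsewhere but lower. The median width was 878.5, 976 and 1009 bases in the 17-71 control libraries, 724.5 and 874 with PR220, 916 and 1021 in the CLBL-1 control libraries, and 968, 931.5 and 940.5 with PR220. The lines overlapped, and their difference of -63 bases was within the spread between libraries (exact permutation p = 0.278). The ratio of this width to that of all other peaks of the same library lay between 0.966 and 1.03. Peaks of 3000 bases or more were a smaller part in 17-71 than in CLBL-1, with 1.19% ± 0.487 (SD, n = 5) against 2.40% ± 0.533 (SD, n = 5) and no overlap of the lines (exact permutation p = 0.00794, adjusted p = 0.0198 over 10 measures). This call was lost in lists of 20000 peaks, with 1.63% ± 0.801 against 2.55% ± 0.664 (SD, n = 5, exact permutation p = 0.0952), and with only peaks of a −log10 p of at least 10 (exact permutation p = 0.0794), and in both the lines overlapped. Among the peaks of the rest of the genome the share was 1.46% ± 0.620 in 17-71 and 1.52% ± 0.0973 in CLBL-1 (SD, n = 5, exact permutation p = 0.802). The fold enrichment, the authors' ratio of fragment pileup to local background, had a median of 3.18 to 3.76 in 17-71 and 3.54 to 4.26 in CLBL-1. In each of the 10 libraries that median was below the median of the library's other peaks, by a ratio of 0.907 to 0.969.

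Most regions had peaks in a single line. Of the 1591 regions, 845 (53.1%) had a peak in 17-71 libraries only, 260 (16.3%) in CLBL-1 libraries only, and 486 (30.5%) in both lines. Over all merged regions of the genome the shares were 45.4, 18 and 36.6%. A peak in all 10 libraries was found in 217 regions, 13.6% against 15.4% of all merged regions of the genome. These shared regions were wide, with a median of 1754 bases against 1078 for the 1591 regions, whose widths ran from 281 to 9524 bases. A merged region spans the peaks of all its libraries, so its width grows with their number by construction. Over the genome the medians were 1669 bases for shared and 1078 for all regions. Within each library, peaks covered a median of 944 to 1306 bases of the 217 shared regions. A single library gave 370 regions, with a median width of 508.5 bases against 530 over the genome.

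A peak in all 5 libraries of 17-71 and in none of CLBL-1 was found in 221 regions, 13.9% of the members against a background of 10.9% over all merged regions. The reverse, all 5 libraries of CLBL-1 and none of 17-71, held for 102 regions, 6.41% against a background of 6.76%. The count for CLBL-1 was thus near the background and that for 17-71 above it; no test was made on these counts. Restricted to peaks whose −log10 p reached 10, the 17-71 count was 90, 11.6% against 6.84% of all regions, and the CLBL-1 count 69, 8.89% against 7.56%. The 17-71 regions had a median fold enrichment, over their own libraries, of 3.99 and a median width of 1244 bases, and the CLBL-1 regions one of 4.14 and 1151.5 bases.

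**Figure D2:**
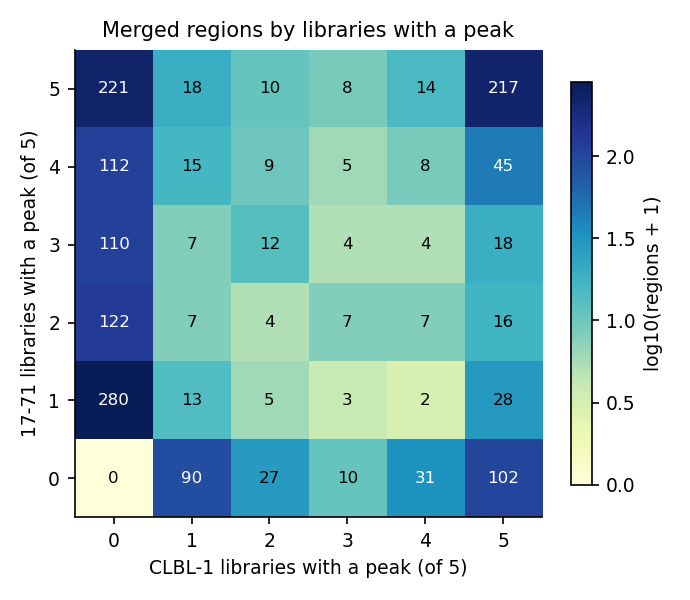
Number of merged regions on chromosome 13 outside 24 to 28 Mb by the number of 17-71 libraries (vertical) and CLBL-1 libraries (horizontal) in which they have a peak, with colour on a log10 scale. The corners hold 221 regions with all 17-71 and no CLBL-1 library, 102 with the reverse and 217 with all 10 libraries, and 280 regions have a peak in 1 library of 17-71 only.

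The 5 regions of each class whose weakest peak was strongest are given as examples. They were picked by the −log10 p of that peak, so strong peaks in every library of their line follow from the choice. The region chr13:34725312-34726904 had a fold enrichment of 5.38, 4.88 and 4.62 in the 17-71 control libraries and of 5.71 and 4.82 with PR220, with no peak in CLBL-1. The region chr13:33879126-33880224 had 5.41, 4.89 and 4.29 in control and 6.22 and 4.35 with PR220. Both lie in a stretch where CLBL-1 had hardly any peak, as the windows below show. The other 3 were chr13:31144340-31145671, chr13:21119373-21120411 and chr13:30992539-30993955, with fold enrichment between 4.22 and 7.76 in 17-71.

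The strongest region of CLBL-1 was chr13:37524560-37525871, with a fold enrichment of 6.67 and 6.41 in the control libraries and 7.15, 6.51 and 6.75 with PR220, and no peak in 17-71. The region chr13:2844178-2845237 reached 8.54 and 6.29 in control and 7.33, 6.63 and 8.26 with PR220. In both regions the control and PR220 libraries overlapped. The other 3 were chr13:23326802-23328161, chr13:44025855-44026995 and chr13:30792582-30793707, with fold enrichment between 4.35 and 8.48 in CLBL-1. The last of these lies between 30 and 31 Mb, within 1 Mb of 2 of the regions named for 17-71.

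Along the chromosome, peaks were counted in 60 windows of 1 Mb. A window held between 3 and 63 regions, with a median of 22.5. The fullest were the windows from 37 to 38 Mb with 63 regions, from 22 to 23 Mb with 59 and from 29 to 30 Mb with 58. The emptiest were those from 50 to 51 Mb with 3, from 11 to 12 Mb with 6, and from 32 to 33, 51 to 52 and 55 to 56 Mb with 7 each. All 60 windows had a peak in some 17-71 library, while the windows from 11 to 12 and from 50 to 51 Mb had none in any CLBL-1 library. The widest gaps differed accordingly. Between regions with a peak in CLBL-1 they were 1892 kb at chr13:10277208-12169654, 1537 kb at chr13:31437208-32973830 and 1504 kb at chr13:53128488-54632706. Between regions with a peak in 17-71 the widest was 609 kb, at chr13:31405953-32015323.

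The share of peaks per window was fitted with limma across the genome, on log2 of the peaks plus 1, per 10000 peaks of the library, in windows with a mean of at least 5 peaks. Of the 60 windows, 45 were tested, with 1440 regions. In 22 of the 45 (48.9%) the share was higher in 17-71 at an adjusted p under 0.05, against a background of 31.5% of 1706 windows of the genome. In 12 (26.7%) it was higher in CLBL-1, against a background of 37.9%. With only peaks of a −log10 p of at least 10, which leaves 26 windows to test, the counts were 8 (30.8%) and 6 (23.1%), against 25.5 and 34.8% of 1137 windows of the genome. In 14 of the 45 windows the mean reached 5 through 17-71 alone, with a CLBL-1 mean under 5, and 11 of these 14 were among the 22 called. Of the other 31, with a mean of at least 5 in each line, 11 (35.5%) were higher in 17-71 and 12 (38.7%) in CLBL-1, against 24.2 and 42.0% of 1459 such windows of the genome. The median log2 difference, 17-71 minus CLBL-1, was 0.22 over the 45 windows and -0.06 over the genome.

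Among the 45 tested windows, the 5 with the largest difference towards 17-71 were those from 33 to 34, 34 to 35, 45 to 46, 17 to 18 and 15 to 16 Mb. The window from 33 to 34 Mb had 18, 14 and 12 peaks in the 17-71 control libraries and 14 and 13 with PR220, against 1 and 1 in the CLBL-1 control libraries and 2, 1 and 1 with PR220. Its log2 difference was 2.53 ± 0.17 (SE; limma adjusted p = 1.74e-12). The window from 34 to 35 Mb had 24, 13, 15, 14 and 15 peaks in 17-71 and 2, 1, 2, 4 and 1 in CLBL-1, a log2 difference of 2.32 ± 0.18 (limma adjusted p = 2.98e-11). In both windows the fewest peaks of a 17-71 library were at least 12, and the most of a CLBL-1 library 4. The windows from 45 to 46, 17 to 18 and 15 to 16 Mb had log2 differences of 1.89 ± 0.15, 1.70 ± 0.12 and 1.54 ± 0.16 (SE; largest limma adjusted p of the 3 = 5.23e-09). Their mean number of peaks was 17.6, 20.6 and 12.2 in 17-71 and 3, 4.2 and 2.4 in CLBL-1. All 5 windows thus had a CLBL-1 mean under 5 and were tested because of their peaks in 17-71. With so few CLBL-1 peaks, the 1 peak added before the log2 limits these sizes and their SE. They are not exact differences.

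No tested window had a 17-71 mean under 5, so sizes towards the lines are not compared over all 45. Among the 31 windows with a mean of at least 5 in each line, the differences ran from -1.47 towards CLBL-1, from 6 to 7 Mb, to 1.04 towards 17-71, from 62 to 63 Mb. The window from 6 to 7 Mb had 11, 8 and 4 peaks in the 17-71 control libraries and 3 and 5 with PR220, against 14 in each CLBL-1 control library and 14, 14 and 11 with PR220, a log2 difference of -1.47 ± 0.14 (SE; limma adjusted p = 6.06e-10). The window from 37 to 38 Mb, the fullest of all, had 42, 29, 29, 23 and 22 peaks in 17-71 and 34, 33, 46, 48 and 36 in CLBL-1. These counts overlap, and it is the share of the library's peaks that separates the lines there, with a log2 difference of -0.74 ± 0.07 (limma adjusted p = 2.72e-09). The windows from 8 to 9, 2 to 3 and 35 to 36 Mb had log2 differences of -0.68 ± 0.13, -0.53 ± 0.07 and -0.49 ± 0.08 (SE; largest limma adjusted p of the 3 = 4.88e-05). With only peaks of a −log10 p of at least 10, the last of these did not pass (limma adjusted p = 0.153).

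**Figure D3:**
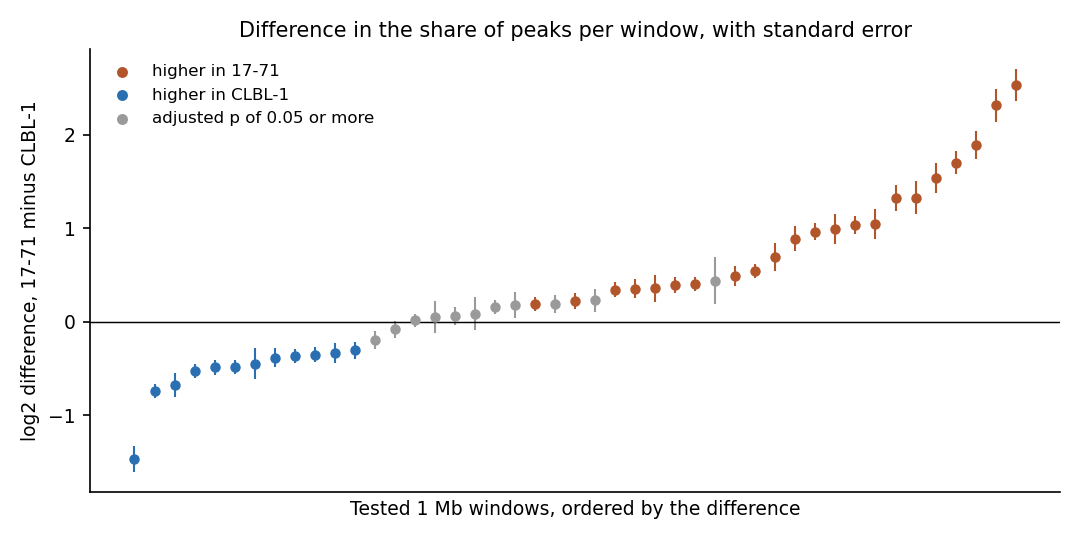
Difference between the lines in the share of peaks per 1 Mb window, log2 of 17-71 minus CLBL-1 with its standard error from limma, for the 45 tested windows ordered by size. Differences past the threshold run from -1.47 to 2.53, with 22 windows higher in 17-71 and 12 higher in CLBL-1. The windows furthest towards 17-71 were tested because of their peaks in that line, and the 1 peak added before the log2 limits their sizes. Among the 31 windows with a mean of at least 5 peaks in each line the differences run from -1.47 to 1.04.

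Every 17-71 library had a larger share than every CLBL-1 library in 27 of the 60 windows (45%), against a background of 29.4% of 2331 windows of the genome, and the reverse held in 8 (13.3%), against a background of 22.1%. The 8 windows of CLBL-1 were single windows with other windows between them. The 27 windows of 17-71 formed 7 stretches of 2 to 4 adjoining windows and 6 single ones. Thus 21 of the 27 (77.8%) adjoined another such window, against 65.9% of those of the genome, and 0 of the 8 did, against 57.6%; no test was made on these counts. From 31 to 35 Mb the 17-71 libraries had 58, 38, 35, 37 and 40 peaks and the CLBL-1 libraries 3, 2, 5, 7 and 4. This stretch held 68 regions, of which 18 had a peak in all 17-71 and no CLBL-1 library and 2 in all 10 libraries. From 52 to 56 Mb there were 31, 22, 19, 15 and 21 peaks against 2, 1, 1, 4 and 1, and none of its 48 regions had a peak in all 10 libraries. From 14 to 18 Mb there were 82, 75, 56, 44 and 60 peaks against 20, 21, 18, 21 and 17. From 61 to 64 Mb, the last windows with regions, there were 66, 52, 47, 34 and 48 against 19, 20, 16, 21 and 16. The other 3 stretches, from 20 to 22, 28 to 30 and 47 to 49 Mb, had means of 44.6, 52.6 and 50.0 peaks in 17-71 and 20.8, 29.4 and 23.6 in CLBL-1. In each of the 7 stretches the library of 17-71 with the fewest peaks had more than any CLBL-1 library. The stretches were built from windows in which the shares of the lines do not overlap, so this separation largely follows from the choice.

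**Figure D4:**
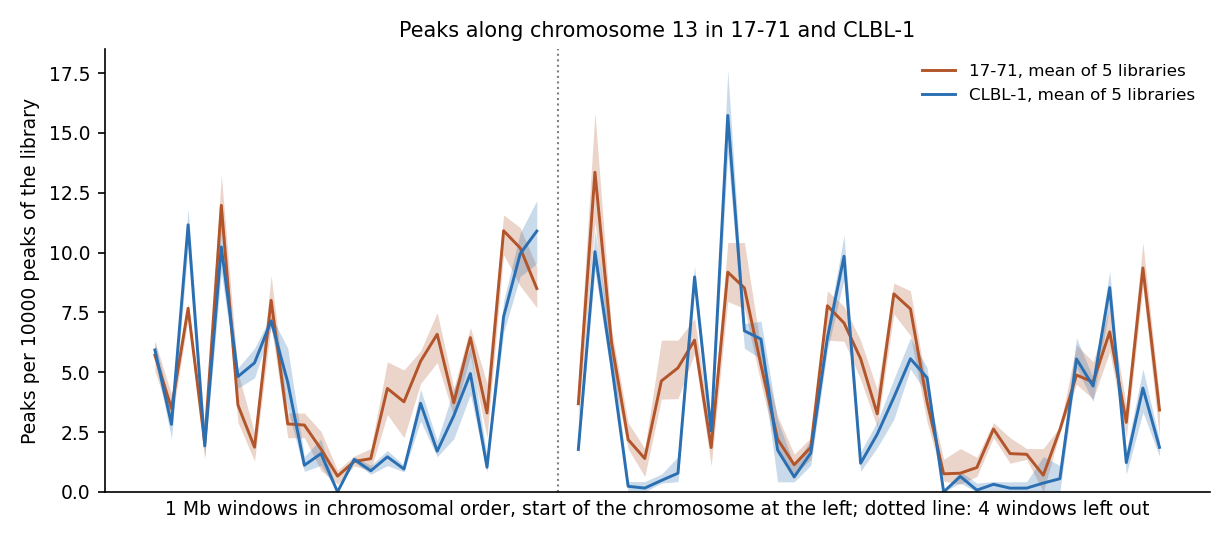
Peaks per 10000 peaks of the library in 60 windows of 1 Mb, in chromosomal order; lines are the means of 5 libraries of each cell line, bands run from the lowest to the highest library, and the dotted line marks the 4 windows left out. The lines share most of their maxima, while the CLBL-1 line lies near 0 in stretches where 17-71 keeps peaks, as in the 4 windows with 4.2 CLBL-1 and 41.6 17-71 peaks on average.

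The 15 windows with too few peaks to be tested held 151 regions, and in 14 of them the mean share was larger in 17-71. Without the minimum of 5 peaks, limma called 11 of these 15 windows higher in 17-71 and 0 higher in CLBL-1, 73.3 and 0% against 51.4 and 13.4% of the 625 windows of the genome under the minimum. The window from 31 to 32 Mb then had a log2 difference of 2.16 ± 0.17 (SE, limma adjusted p = 7.92e-09). That from 53 to 54 Mb had one of 2.12 ± 0.20 (SE, limma adjusted p = 4.06e-08). Each CLBL-1 library had 0 or 1 peak in these windows. The 1 peak added before the log2 therefore limits both sizes and their SE, and they are not exact differences.

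How strongly shared regions were enriched was compared in the 217 regions with a peak in all 10 libraries, on log2 fold enrichment with each library centred on its median, by limma over the 9179 such regions of the genome. In 53 regions (24.4%) it was higher in 17-71, against a background of 21.5%. In 40 regions (18.4%) it was higher in CLBL-1, against a background of 19.2%. Without centring, when the larger fold values of the CLBL-1 libraries stay in, the counts were 18 (8.29%) and 64 (29.5%), against 7.12 and 32.2% over the genome.

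The region chr13:17244708-17245863 had a fold enrichment of 6.87, 5.67 and 5.46 in the 17-71 control libraries and 6.14 and 5.40 with PR220, against 3.54 and 3.25 in the CLBL-1 control libraries and 3.57, 2.93 and 3.52 with PR220. Its log2 difference after centring was 0.97 ± 0.07 (SE; limma adjusted p = 5.7e-07), the largest towards 17-71. It lies in the window from 17 to 18 Mb, one of the 5 tested windows with the largest difference towards 17-71. The regions chr13:28570160-28572563, chr13:18858875-18861061 and chr13:45508891-45512297 followed, with log2 differences of 0.75, 0.73 and 0.68, and the fifth was paired with STAP1, described below. Towards CLBL-1 the largest was chr13:1020778-1024676, with 3.54, 2.94, 3.21, 3.40 and 2.66 in 17-71 and 6.21, 5.35, 5.76, 5.94 and 7.60 in CLBL-1, a log2 difference of -0.80 ± 0.09 (SE; limma adjusted p = 1.22e-05). The lines did not overlap in either of these regions. The next were chr13:7820857-7822638, chr13:2677147-2678507, chr13:35567943-35570994 and chr13:23441587-23442541, with log2 differences between -0.71 and -0.61.

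The widest shared region, chr13:37472696-37482219, spanned 9524 bases. Its peaks covered 3439, 2076, 2164, 1970 and 1890 bases in 17-71 and 4683, 3967, 5815, 3522 and 6119 in CLBL-1, so every CLBL-1 library covered more of it. Its fold enrichment went the other way, from 3.03 to 3.49 in 17-71 and from 2.18 to 2.51 in CLBL-1. The next widest were chr13:44046628-44053012 and chr13:38100792-38107047, with 6385 and 6256 bases. The largest mean fold enrichment over the 10 libraries, 8.40, was at chr13:21547301-21549106, with 12.1, 8.79, 7.69, 9.41 and 6.51 in 17-71 and 7.73, 10.4, 7.69, 6.96 and 8.04 in CLBL-1. The lines overlapped there (limma adjusted p = 0.116). It was followed by chr13:16927442-16928202 with 7.75 and chr13:18824095-18825009 with 7.54.

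At the edges of the stretch left out, the last region before it was chr13:23784121-23785249, with a peak in 4 of 5 libraries of 17-71 and none of CLBL-1. The first after it was chr13:28300708-28301208, with a peak in 1 library of CLBL-1 only, at a fold enrichment of 3.33. Just inside, and so left out, were chr13:24090357-24091036 with a peak in 1 library of 17-71 and chr13:27933543-27934715 with a peak in 3. None of these 4 regions had a peak in every library of a line.

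Gene names could be given only where the study itself pairs a region with a gene. The pairs at hand are those it ranked highest for change in these same libraries, so they are a selected set and are described without a test of the set. Of the 1591 regions, 18 overlapped a paired region, with 18 genes, of which 13 are protein coding. From 74 genes of the chromosome listed in 5 groups, 8 had a paired region: 1 of 6 of the receptor kinase cluster (KIT), 3 of 13 of lymphoid and signalling genes (SLA, STAP1, IGFBP7), 2 of 17 of chromatin, transcription and RNA genes (PUF60, CPSF1), 1 of 20 housekeeping genes (DGAT1) and 1 of 18 genes of other tissues (PPBP). For the other 66 no statement is made.

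The region inside KIT, chr13:47109537-47113215, had a peak in all 17-71 and no CLBL-1 libraries. Its fold enrichment was 2.99, 2.77 and 2.63 in control and 3.07 and 2.61 with PR220, and its peaks covered 3171, 3679, 3341, 2976 and 3509 of 3679 bases. It was thus broad and low in every 17-71 library, and control and PR220 overlapped. The region at SLA, which encodes an adaptor that dampens antigen receptor signalling, lies downstream of the gene at chr13:29499101-29502548. It had 2.57, 2.49 and 2.38 in the 17-71 control libraries, 2.35 in PR220 library 2, no peak in PR220 library 1 and none in CLBL-1.

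STAP1, which encodes an adaptor of B-cell receptor signalling, had a region over its start, chr13:58099001-58103501, with a peak in all 10 libraries. The fold enrichment was 4.97, 5.55 and 4.69 in the 17-71 control libraries and 3.36 and 3.78 with PR220, and 2.80 and 3.23 in the CLBL-1 control libraries and 2.72, 2.65 and 3.84 with PR220. All control libraries of 17-71 were above all other libraries. It was higher in 17-71 than in CLBL-1 by 0.66 ± 0.11 on the log2 scale (SE; limma adjusted p = 0.000468), and its log2 difference between PR220 and control in 17-71, -0.44 ± 0.16, did not pass the threshold (limma adjusted p = 0.149).

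The region upstream of CPSF1, a subunit of the complex that cleaves and polyadenylates messenger RNA, went the other way. At chr13:37829253-37830008 it had a fold enrichment of 3.28 in CLBL-1 control library 1, no peak in control library 2, and 3.85, 4.41 and 3.84 with PR220, with no peak in 17-71. The region inside PUF60, a splicing factor, at chr13:37386046-37387266, had a peak in 4 of 5 libraries of each line, from 2.90 to 3.93. The regions at IGFBP7, which encodes a secreted binding protein of growth factors, and at PPBP, a platelet chemokine, had a peak in 1 library of 17-71, and that at DGAT1, an enzyme of triglyceride synthesis, in 1 library of each line.

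Outside the listed genes, the regions upstream of SNTB1, which encodes a syntrophin of the dystrophin complex, and inside the zinc finger gene ZNF252 had a peak in all 10 libraries. The fold enrichment at SNTB1 was 4.68, 4.08 and 4.00 in the 17-71 control libraries, 4.61 and 3.53 with PR220, 5.68 and 4.20 in the CLBL-1 control libraries and 4.73, 4.58 and 5.39 with PR220. At ZNF252 it was 8.10, 4.63 and 6.68, 5.08 and 5.13, 7.59 and 5.47, and 6.53, 7.09 and 7.60 in the same order. In both genes the lines and the treatments overlapped, and the log2 differences between the lines, -0.07 ± 0.08 and -0.08 ± 0.11 (SE), had limma adjusted p of 0.499 and 0.564. The region upstream of an rRNA gene (RF00002), chr13:63237633-63239317, had the most significant peaks of the 18, with a −log10 p of 164 to 729 against library medians of 8.02 to 12.6 on the chromosome. Its fold enrichment was 4.97, 4.35, 4.18, 5.28 and 4.79 in 17-71 and 5.33, 5.03, 5.79, 5.39 and 5.30 in CLBL-1. Reads from near-identical copies of rRNA genes elsewhere may have been placed here, which was not tested. The other 7 genes of the 18, among them 3 lincRNA genes, have no symbol in the study's pairing.

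**Figure D5:**
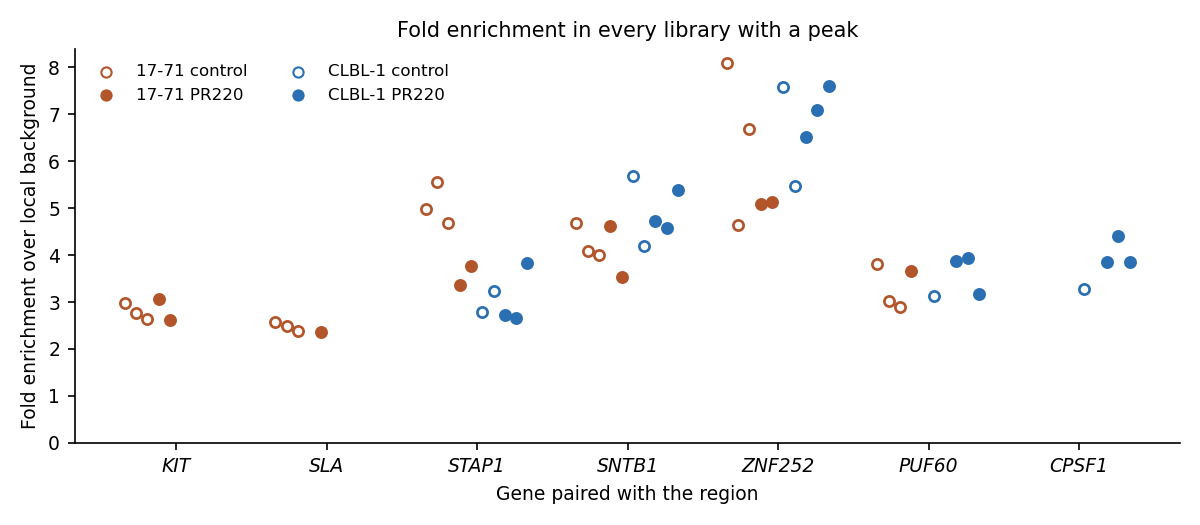
Fold enrichment over local background, by gene, of 7 regions that the study pairs with a gene, in every library that has a peak there; colours give the cell line and filled points PR220. KIT and SLA have points of 17-71 only and CPSF1 of CLBL-1 only, and the 17-71 control libraries at STAP1, from 4.69 to 5.55, are above all other libraries of that gene.

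PR220 was compared with control within each line. In 17-71 the control libraries had a share of peaks on the chromosome of 2.71% ± 0.0878 (SD, n = 3). The PR220 libraries had 2.89% ± 0.0167 (SD, n = 2). Both PR220 libraries were above all controls, by 0.182 percentage points on average (exact permutation p = 0.1, the smallest that 10 splits allow). The number of peaks went the other way, from 978 ± 159 in control to 719.5 ± 118 with PR220 (SD). The PR220 libraries of 17-71 had fewer peaks in all, 24861 on average against 36226. In CLBL-1 the control libraries had 2.35% ± 0.00554 (SD, n = 2) and the PR220 libraries 2.26% ± 0.0558 (SD, n = 3), without overlap (exact permutation p = 0.2). In lists of 20000 peaks the 17-71 groups still did not overlap, with 2.57, 2.74 and 2.64% against 2.88 and 2.90%, while those of CLBL-1 met, with 2.33 and 2.33% against 2.31, 2.29 and 2.33%. With only peaks of a −log10 p of at least 10 the 17-71 groups overlapped, with 2.47, 2.77 and 2.72% against 2.77 and 3.02%, since PR220 library 1 lay just below control library 2 (difference of the means 0.241 percentage points, exact permutation p = 0.3). The effect in 17-71 minus that in CLBL-1 was 0.272 percentage points (exact permutation over 100 arrangements, p = 0.02, adjusted p = 0.1 over 10 measures).

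Of the 45 tested windows, 1 changed with PR220 in 17-71 by limma, upwards, against a background of 1.7% of windows, and 0 went down, against a background of 2.46%; 5 (11.1%) had an unadjusted p under 0.05, against 22.3% of the genome's windows. The window that rose was that from 5 to 6 Mb, with 13, 10 and 9 peaks in control and 11 and 12 with PR220. The numbers overlap, and it is the share of peaks that rose, by 0.65 ± 0.14 on the log2 scale (SE; limma adjusted p = 0.0102). Without control library 1 the limma adjusted p was 0.0528. Without PR220 library 1, which leaves 1 library in that group, the window did not pass either. In CLBL-1 that window had 12 and 12 peaks in control and 14, 12 and 10 with PR220. In CLBL-1 0 of the 45 windows passed in either direction, against a background of 0.0586%, and 4 (8.89%) had an unadjusted p under 0.05, against 6.74%. The difference between the lines in the PR220 effect passed in 0 of the 45 windows, against backgrounds of 0.176% for a larger and 0.352% for a smaller effect in 17-71, with 8 (17.8%) at an unadjusted p under 0.05, against 17.2%.

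Among the 217 regions shared by all libraries, 1 changed in fold enrichment with PR220 in 17-71 by limma. It fell at chr13:18907310-18908690, from 5.11, 5.47 and 4.89 in control to 3.40 and 3.39 with PR220, a log2 difference of -0.53 ± 0.11 (SE; limma adjusted p = 0.0491). It did not pass in 10 alternatives, with adjusted p of 0.0505 to 0.338, and at a −log10 p of at least 10 it was not among the regions tested. In CLBL-1 it was 6.21 and 5.69 in control and 5.82, 5.86 and 5.59 with PR220. The share of the genome's shared regions called lower was 0.218% and that called higher 0.61%, where 0 of the 217 were called; 42 of the 217 (19.4%) had an unadjusted p under 0.05, against 20.7% of the genome's shared regions. Without either PR220 library of 17-71, that group holds 1 library and the spread comes from the other groups alone, so no counts are given. In CLBL-1 0 passed, as in the whole genome (0%), with 7 (3.23%) at an unadjusted p under 0.05, against 4.04%.

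By presence alone, 75 regions had a peak in every control and no PR220 library of 17-71, 4.71% against a background of 5.69%, and 4 the reverse, 0.251% against a background of 0.173%. In CLBL-1 5 were lost, 0.314% against 0.273%, and 5 gained, 0.314% against 0.936%. The share lost in 17-71 was below that of the genome, and the other shares rest on 4 or 5 regions each. In lists of equal length, 20000 peaks a library, 12 regions were lost and 17 gained in 17-71, 1.16 and 1.65% against 1.74 and 1.59% of all. Without PR220 library 1 of 17-71, the library with the fewest peaks, 96 were lost and 42 gained, 6.18 and 2.70% against 7.32 and 1.78% of all. Without PR220 library 2, 222 were lost and 46 gained, 14.3 and 2.96% against 13.96 and 1.52%. Without control library 1, the one with the most peaks, it was 89 and 12, 6.18 and 0.833% against 6.91 and 0.711%. In CLBL-1 35 were lost without control library 1, 2.22% against 1.52%, and 33 without control library 2, 2.09% against 1.51%. Without its PR220 library 3, 30 were gained, 1.89% against 2.63%. Of the 75 lost regions, which lay in 39 of the 60 windows, 47 had no peak in CLBL-1 and 11 had one in all 5 of its libraries. Of all regions here with a peak in 17-71, 845 of 1331 had none in CLBL-1, a share near that of the lost ones. Over the genome 26980 of 48704 had none.

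Among the lost regions of 17-71, the strongest by its weakest peak was chr13:19660556-19661452, with a fold enrichment of 4.08, 4.63 and 3.96 in the control libraries. It was followed by chr13:60454745-60455756, with 2.97, 3.04 and 3.21, and by chr13:45396846-45398316 inside a lincRNA gene (ENSCAFG00000036563), with 3.67, 3.28 and 3.78. The strongest 3 of the gained regions were chr13:30983585-30984429 with 3.14 and 2.82, chr13:43653699-43654483 with 3.55 and 3.04, and chr13:40560388-40561022 with 3.39 and 3.03 in the PR220 libraries. The weakest peak of these gained regions had a −log10 p of 5.45 to 5.89, close to the limit of 5 used in the peak calling. None of the 6 had a peak in CLBL-1.

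In CLBL-1 the strongest 3 lost regions were chr13:62936160-62936605 with 4.04 and 3.39, chr13:4480985-4481458 with 3.69 and 3.24, and chr13:47640207-47642916 with 3.44 and 2.86 in the control libraries. The last had a peak in all 5 libraries of 17-71, from 3.33 to 4.24. The strongest 3 gained regions were chr13:38038597-38042033 with 3.31, 3.09 and 3.91, chr13:2402062-2403259 with 3.45, 3.40 and 4.51, and chr13:37229137-37230396 with 2.60, 2.73 and 3.07 in the PR220 libraries. The first had a peak in 17-71 control libraries 1 and 3, at 3.07 and 3.001, and in neither PR220 library of 17-71, and the others had none in 17-71. All 6 had a weakest −log10 p between 5.28 and 6.18.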

How the data were processed

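ATAC-seq was made in 10 libraries in 4 groups. Per the methods and labels, the authors used Bowtie2 2.2.4 to place read pairs on CanFam3.1, removed outlier samples by correlation of read counts, and called broad peaks in each library with MACS2 (p cutoff 1e-05, genome size set for human), without pooling. The deposited lists give a fold enrichment (ratio), a −log10 p and a −log10 q of each peak. Their display score, which the authors' caller derived from the q-value, was not used. Lists carry no depth, which limits presence calls. Merging was checked against bedtools 2.31.1. A library had a peak in a region from 1 base of overlap. Single values were compared by exact permutation, with Benjamini-Hochberg adjustment over 40 chromosome units or 10 measures where an adjusted p is given. Windows and fold enrichment were compared with limma 3.58.1 (R 4.3.3), with that adjustment over all features of the genome. The threshold was 0.05. Simulated data with known differences were run through the limma steps. Their window counts had no spread between libraries beyond that of counting, and no result above rests on them. No 2 libraries held peaks with the same interval and fold (0 pairs). Named items followed a rule: the 3 widest shared regions and the 3 of largest mean fold, the 5 strongest per direction between the lines, the 3 strongest lost and gained per line, the 5 largest changes per direction and contrast, and the regions beside 24 to 28 Mb. Members, lists and rules were chosen with earlier results of these data known, and the gene pairs were looked up afterwards, since no genome or annotation of CanFam3.1 was used here; sequences, start sites, motifs and cell type markers were not analysed. Alternatives were equal lists, a −log10 p of at least 10, left-out libraries, other window, centring, overlap and merging settings.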

Additional observations from a re-analysis of the deposited data

Results flagged for a closer look

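The effect of PR220 on the share of peaks on chromosome 13 outside 24 to 28 Mb had an unadjusted p under 0.05 in a test of the difference between the lines itself. The share was higher with PR220 in 17-71, in 2 of 2 PR220 libraries against all controls, and lower in CLBL-1, in 3 of 3. The difference of the effects was 0.272 percentage points (exact permutation over 100 arrangements, two-sided p = 0.02, adjusted p = 0.1 over 10 measures), so it does not pass the threshold after adjustment. In lists of 20000 peaks it was 0.26 (exact permutation p = 0.03). The total number of peaks moved with it, falling with PR220 in 17-71 from 36226 to 24861 on average and rising in CLBL-1 from 23570 to 25785. Its part in the difference was not tested beyond the lists of equal length.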

How the results depend on the processing

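The share of peaks kept its direction and side of the threshold between the lines under all 12 alternatives, from 0.456 to 0.530 percentage points between the lines when 1 library was left out and 0.354, with the lines overlapping, at a −log10 p of at least 10. The difference of the PR220 effects ran from 0.221 to 0.301 percentage points without 1 library. Without either PR220 library of 17-71 or either control library of CLBL-1, that group holds 1 library. Fewer arrangements are then possible, so no p is given. At a −log10 p of at least 10, with fewer windows and regions tested, 8 windows were higher in 17-71 and 6 in CLBL-1, 23 and 13 shared regions were higher in 17-71 and CLBL-1 (24.2 and 13.7%, against 18.3 and 16.9% over the genome), and 90 regions had a peak in all 17-71 and no CLBL-1 libraries. The share of peaks of 3000 bases or more differed between the lines by -0.916 percentage points in lists of 20000 peaks and -1.15 at a −log10 p of at least 10 (exact p of 0.0952 and 0.0794, alternatives chosen after seeing the data), and kept its call without any 1 library (-1.33 to -0.99). Without centring, 18 and 64 shared regions were higher in 17-71 and CLBL-1; the cause was not tested. For PR220 in 17-71, windows called higher numbered 2 at a −log10 p of at least 10 (7.69% of 26, against 11.3% over the genome, and 0 lower against 8.09%) and 0 with windows moved by 0.5 Mb. They numbered 0 or 1 without 1 control library of 17-71 or 1 library of CLBL-1. Shared regions called lower with PR220 in 17-71 numbered 0 at a −log10 p of at least 10, 0 without centring, 0 with the largest fold of a region, and 0 to 7 without 1 library, where those called higher numbered 0 to 11; both largest counts came without PR220 library 2.

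Regions lost in 17-71 numbered 12 in lists of 20000 peaks and 75 to 222 without 1 library. Those gained in 17-71 numbered 17 in lists of 20000 peaks, 0 at a −log10 p of at least 10 (against 0.0224% of all regions) and 4 to 46 without 1 library. In CLBL-1, 9 were lost and 8 gained in lists of 20000 peaks, 0.871 and 0.774% against 0.716 and 0.665% of all. At a −log10 p of at least 10, 2 were lost and 2 gained in CLBL-1, 0.258% each against 0.122 and 1.19% of all. The shares for the lists of 20000 peaks in 17-71, and for the largest counts without 1 library, are given above. No test was made on these counts. Without 1 library, 5 to 35 were lost and 5 to 30 gained in CLBL-1. A criterion over fewer libraries is met more easily. Of the single windows and regions named, 0 reversed. The window from 35 to 36 Mb lost its call at a −log10 p of at least 10 (limma adjusted p = 0.153). The window from 5 to 6 Mb lost its call without 17-71 control library 1 (limma adjusted p = 0.0528). It also lost it without PR220 library 1, a fit with 1 library in that group. The region at 18907310 lost its call in 10 alternatives, as given above. No paired analysis of PR220 was possible because the control and PR220 libraries of a line share no number in their label codes. The codes are B1, B2, B3 and B4, B6 in 17-71, and C2, C3 and C4, C5, C6 in CLBL-1. The library numbers used above only name libraries within a group. Of the code numbers, 2, 3, 4 and 6 occur in both lines, but libraries with the same code number did not deviate together (correlations of -0.18 to 0.07). With that number as a replicate block, chosen after seeing the data, 21 windows were higher in 17-71 and 11 in CLBL-1 (46.7 and 24.4%, against 29 and 33.5% over the genome), and 45 and 32 shared regions (20.7 and 14.7%, against 18.4 and 15.1%). Depth is unknown, and with 2 or 3 libraries a group no exact test within a line can go below 0.1.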
